A study of Mus musculus with 6 samples.

Results

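The miRNAs named miR-297, miR-466, miR-467 and miR-669 are 4 rodent families whose hairpins are packed into an intron of the mouse gene Sfmbt2. Members were taken by name, as every mature miRNA whose name starts with mmu-miR-297, mmu-miR-466, mmu-miR-467 or mmu-miR-669 followed by a letter or hyphen. This gave 80 of the 1900 mature names in the count tables, on 148 of 2033 rows. The libraries are of small RNA from kidney cortex, 1 for each of 6 C57BL/6 mice, whose age and sex the labels do not give. All 6 mice ate the HF/HC/HS/BA diet, a steatohepatitis-inducing feed, for 8 weeks. The parts of that name include high fat, high cholesterol and bile salt, and HS is not spelled out here. In 3 of them (NASHTofo) the feed also held tofogliflozin, an inhibitor of the renal glucose transporter SGLT2, and the other 3 (NASH) are called diet only here. Every animal was on the disease-inducing diet, so the comparison is of drug against no drug within that diet.

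A miRNA hairpin is cut from a longer transcript, and each of its arms, 5p and 3p, can give a mature miRNA that represses mRNAs matching its seed, the bases near its 5′ end. The Sfmbt2 cluster arose in rodents by repeated tandem duplication, is imprinted together with its host gene and expressed from the paternal allele, and is best known from placenta and embryonic stem cells. Sfmbt2 encodes a Polycomb group protein needed for trophoblast development. Because the hairpins are copies of each other and carry stretches of simple repeat, many mature sequences are identical or nearly so, and short reads from them can fit several genomic places.

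Of the 80 names, 8 matched a mature sequence in the RefSeq table of build GRCm38.p6. All 8 come from hairpins outside Sfmbt2 and had 0 counts in all 6 libraries. They are shown because they carry the repeats of U and G or of C and A that mark these families. Capitals mark the seed, bases 2 to 8.
miR-466k: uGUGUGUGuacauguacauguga
miR-466j: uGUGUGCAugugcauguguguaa
miR-466i-3p: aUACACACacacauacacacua
miR-466q: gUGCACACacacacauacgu
miR-467f: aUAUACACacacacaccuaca
miR-467g: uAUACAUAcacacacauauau
miR-467h: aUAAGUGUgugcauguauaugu
miR-669n: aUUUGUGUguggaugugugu

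The 8 sequences had 8 different seeds. The longest unbroken run of alternating U and G, or of alternating C and A, was 12 bases in miR-466q and miR-467f and 7 bases in miR-467h and miR-466j. UGUGUG, read on the mature strand, was in 4 of them (miR-466k, miR-466j, miR-467h and miR-669n), and ACACAC was in the other 4. Among the 1671 other mature sequences of the table, 31 (1.86%) held UGUGUG or ACACAC. Of other names in the count tables, 15 of 28 (53.6%) with one of these motifs had a count in a library, against 868 of 1567 (55.4%) without. Outside the 4 families, names with and without the motifs were thus counted about equally often.

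These 8 members lie on the plus strand at chr3:85467396-85467418 (miR-466k), chr10:60960802-60960824 (miR-466j), chr13:17747552-17747573 (miR-466i-3p), chr3:28419988-28420007 (miR-466q), chr9:115381898-115381919 (miR-467h) and chr3:115979905-115979924 (miR-669n), and on the minus strand at chr11:69635419-69635439 (miR-467f) and chr5:34732872-34732892 (miR-467g). By GENCODE M21, the hairpin of miR-466q is in an intron of Tnik on the same strand. Those of miR-466k, miR-466i-3p, miR-467f, miR-467g and miR-669n lie opposite introns of Gm37240, Cdk13, Fxr2, Grk4 and Slc30a7, and those of miR-466j and miR-467h lie between genes.

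The first question was which members the renal cortex libraries held at all. Of the 80 names, 19 (23.75%) had a count in at least 1 library and 61 had none, against 1007 of 1820 other names (55.3%). Only 7 members had a count in all 6 libraries, miR-669c-5p, miR-467c-5p, miR-467d-5p, miR-467e-5p, miR-669l-5p, miR-669d-5p and miR-466c-5p. By family, 10 of 30 miR-669 names were counted, 3 of 13 miR-467 names, 5 of 31 miR-466 names and 1 of 6 miR-297 names. The Dlk1-Dio3 cluster, another large imprinted miRNA cluster, had 55 of 99 listed names counted (55.6%), and the low-abundance mirtron-type names miR-6896 to miR-7094 had 238 of 403 (59.1%). Libraries held 6643638 to 22886200 counts when each name took its largest row, so a count of 0 allowed up to 0.131 to 0.452 counts per 1000000 (CPM), taking 3 counts as the limit. Such limits cover counting error only.

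Detection was not lowest in the shallowest library. Diet-only replicates 1, 2 and 3 held counts for 10, 13 and 11 members, and tofogliflozin replicates 1, 2 and 3 for 12 each. At the depth of the shallowest library, tofogliflozin replicate 2, the expected numbers were 9.04, 11.4 and 9.77 in the diet-only libraries, and 8.82, 12 and 8.99 in the tofogliflozin libraries. The groups overlapped in both measures.

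Names listed under 3 or more precursors were all without counts, although most names without counts had a single precursor. The tables give 1 row per pairing of a mature name with a hairpin, and 17 members had more than 1 row. None of the 9 members with 3 or more rows was counted, which take in miR-669a-5p (12 rows), miR-669a-3p (11), both arms of miR-467a (10 each), both arms of miR-466b (8 each), miR-297a-5p (4) and both arms of miR-466f (3 each). Of the 8 members with 2 rows 3 were counted, and of the 63 with 1 row 16 were (25.4%). Among other names, 3 of 7 with 3 or more rows, 39 of 51 with 2 rows and 965 of 1762 with 1 row (54.8%) were counted. Inside the families the counted share was thus 0 at 3 or more rows, but it did not fall steadily with the number of rows. The part of the number of rows in the absence of counts was not tested. The counting rule for reads that fit several places is not given in the sources used here, so an absent count for these names cannot be read as an absent miRNA.

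**Figure D1:**
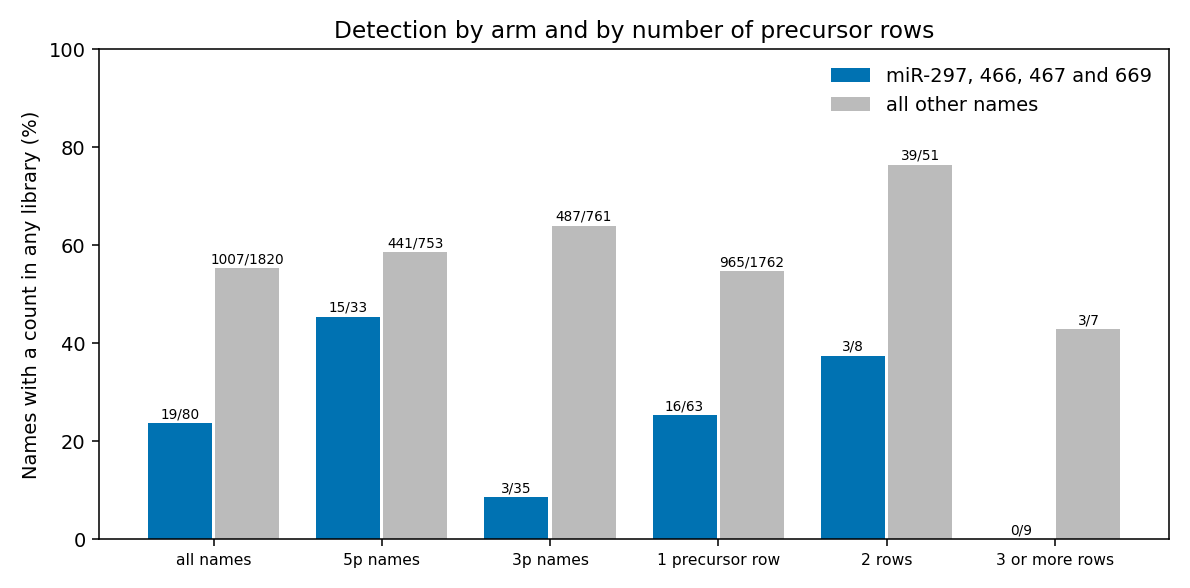
Share of names with a count in any of the 6 libraries, in percent, for the 80 members (blue) and the 1820 other names (grey), over all names, by arm and by number of precursor rows; the numbers over the bars are counted names over all names. Members were counted less often than other names in each pair of bars, with 3 of 35 for 3p names and 0 of 9 for names with 3 or more rows.

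Where a counted member had 2 rows, both rows held the same counts. This held for all 3 such members, miR-466c-5p, miR-669d-5p and miR-669p-3p, whose 2 rows had the same value in each library. Among other names with several rows that were counted, 14 of 42 had the same values in each row. For every name, also where rows differed, the largest row per library was used and not the sum. Between members of different names, only miR-466h-5p and miR-669p-3p had the same counts, 1 count each in the same library, so the 19 counted members gave 18 distinct sets of counts.

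The place of the counted hairpins along Sfmbt2 was examined next. GENCODE M21, on the build mm10 that the submitters used, lists 71 hairpins of these families inside Sfmbt2, on chromosome 2 from 10466663 to 10518279 on the plus strand, and 10 elsewhere. None of the 71 overlaps an exon of the gene. They lie within intron 10 of 22 of a protein-coding transcript of Sfmbt2, and that intron spans 10461473 to 10523944. The annotation has 48 more miRNA genes inside Sfmbt2 under provisional Gm names. By name, 18 of the 68 members placed in Sfmbt2 alone were counted and 0 of the 9 placed elsewhere alone. The remaining 3 are miR-466f, with 1 count in all, and its 2 arms with none, since hairpins of that name lie in both. Of the 68, miR-297a-5p, with 0 counts, had 4 rows but 3 hairpins by name. Mir297-1 on chromosome 7 was matched to no member, so the place of miR-297a-5p in Sfmbt2 alone is uncertain.

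The middle of the cluster was nearly empty of counts and its flanks held the rest. From Mir467a-1 to Mir467a-10, a stretch bounded after the values were seen, copies of Mir467a, Mir466b and Mir669a alternate, and neighbouring Mir467a hairpins from Mir467a-2 on start 2413 to 4880 bases apart (median 2463). In this stretch 29 of 33 hairpins had no counted name, 25 of them copies of Mir467a, Mir466b and Mir669a, whose names have 3 or more rows. The other 4 at 0 are Mir669g, Mir669j, Mir466e and Mir467b. The 4 hairpins with counts there were Mir466c-1 and Mir466c-2, which share miR-466c-5p, and Mir669p-1 and Mir669p-2, which share miR-669p-3p. Counts belong to names, so hairpins that share a name repeat the same value and are not separate observations. Upstream of it 7 of 16 hairpins had a counted name, and downstream 9 of 22. The 6 most abundant members all came from these flanks, miR-669l-5p and miR-467c-5p from the upstream and miR-467e-5p, miR-467d-5p, miR-669c-5p and miR-669o-5p from the downstream one.

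**Figure D2:**
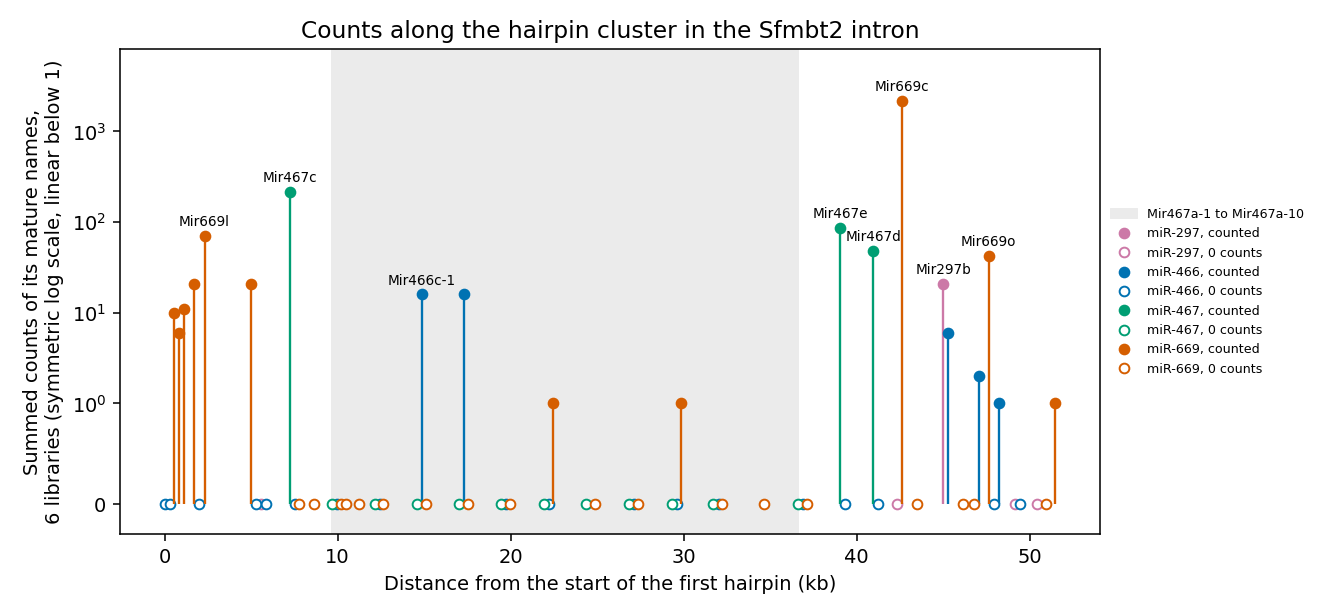
Counts along the Sfmbt2 cluster. The horizontal axis is the distance in kb from the start of the first hairpin and the vertical axis the counts of the hairpin's mature names summed over 6 libraries, on a symmetric log scale. Filled points are hairpins with a counted name and open points those at 0, coloured by family; the grey band runs from Mir467a-1 to Mir467a-10. Hairpins that share a name show the same counts, as do Mir466c-1 and Mir466c-2 at 16. The band holds 29 of 33 hairpins at 0, and Mir669c stands above the rest at 2180.

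One miRNA made up most of the reads. The 80 names together had 2741 counts over the 6 libraries, of which miR-669c-5p had 2180 (79.5%), miR-467c-5p 217 (7.92%), miR-467e-5p 86 (3.14%) and miR-669l-5p 71 (2.59%). In single libraries miR-669c-5p took between 73.1% (95% exact binomial interval 68.8% to 77.2%, diet-only replicate 2) and 82.6% (78.6% to 86.0%, tofogliflozin replicate 3) of the member counts. Ranked by mean abundance among all 1900 names, miR-669c-5p was at 195, miR-467c-5p at 345 and miR-467e-5p at 407. It was the single member of 80 with a mean of at least 10 CPM (1.25%), against 247 of 1820 other names (13.6%). The median over counted members was 0.155 CPM, against 0.429 over other counted names, 0.135 for the Dlk1-Dio3 list and 0.0966 for miR-6896 to miR-7094.

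Nearly all member reads came from 5p arms. Names ending in 5p had 2729 of the 2741 counts (99.6%), names ending in 3p had 11, and miR-466f, which names no arm, had 1. Of 33 5p names 15 were counted (45.5%), and of 35 3p names 3 (8.57%). Other names were counted in 441 of 753 cases for 5p (58.6%) and in 64.0% of 761 cases for 3p. Of 33 hairpin names with both arms listed, 14 had counts in the 5p arm alone, 2 in the 3p arm alone (miR-466d and miR-669p) and 1 in both, miR-669f with 6 counts for 5p and 4 for 3p. The other 16 had none.

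The most abundant hairpin, Mir669c, at chromosome 2, 10509296 to 10509404, had 2180 counts for its 5p arm and 0 for its 3p arm, which allows a 3p share of up to 0.138% of its counts. For miR-467c, at 10473931 to 10474027, the counts were 217 and 0, which allows up to 1.38%. For miR-467e the 5p count was 86 and for miR-669l it was 71, again with 0 for the 3p arm, which allows up to 3.49% and 4.23%. These limits cover counting error only. Since the counting rule for reads that fit several places is not given, a 3p arm at 0 cannot be read as absent. Of 6 member hairpin names with at least 40 counts in the higher arm, a minimum set after the values were seen, 6 had the other arm at 0, against 70 of 172 other hairpin names whose higher arm was between 40 and 2180 counts (40.7%). Whether tofogliflozin moved the balance of arms could not be tested for any member, because no member hairpin had a mean of 10 counts in its lower arm. Over the 111 hairpins of other names that did, limma called 0 (0%) at an adjusted p under 0.05, and 2 had an unadjusted p under 0.05 (1.8%).

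The second question was whether members differed between mice with and without tofogliflozin. The low-count filter kept 4 of the 80 members among 460 tested names, and none of the 4 passed the threshold in edgeR's quasi-likelihood test, where 0 of 460 names (0%) did. At an unadjusted p under 0.05 there were 0 of the 4 members and 23 of 460 names (5%). DESeq2 and limma-voom called 0 of the 4 members too. Of the 4 log2 fold changes, tofogliflozin over diet only, 2 were below 0, where 50.9% of all tested names were, and their median was -0.13, against -0.01 over all. In these tissue libraries, fewer cells of a type and less RNA per cell cannot be told apart.

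miR-669c-5p stood at 27.4, 24.1 and 22.8 CPM in diet-only replicates 1, 2 and 3, and at 22.5, 32.7 and 19.6 CPM in tofogliflozin replicates 1, 2 and 3. The highest and the lowest library were both from tofogliflozin mice, with all diet-only values between them. The means were 24.7 ± 2.36 and 24.9 ± 6.85 CPM (SD, n = 3 each). edgeR put the log2 fold change at 0.002 ± 0.226 (SE; 95% interval -0.52 to 0.52; adjusted p = 0.997). Without tofogliflozin replicate 2, which stood apart from the other 5 on the first principal component of all tested names (-13.8, against -0.141 to 6.17), it was -0.23 (adjusted p = 0.915 by edgeR).

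miR-467c-5p was the tested member whose groups did not overlap. It was at 2.42, 3.22 and 2.86 CPM in the diet-only replicates and at 2.07, 2.39 and 1.66 CPM in the tofogliflozin replicates, from 55, 44 and 44 and 28, 16 and 30 counts. The lowest diet-only value and the highest tofogliflozin value lay close together. The means were 2.83 ± 0.399 and 2.04 ± 0.365 CPM (SD, n = 3 each). This difference, -0.49 ± 0.30 on the log2 scale (SE; 95% interval -1.18 to 0.19), missed the threshold (adjusted p = 0.854 by edgeR; exact permutation p = 0.1, the smallest that 3 against 3 mice allow). Over all 460 tested names, 6.96% were lower with tofogliflozin without overlap and 12% did not overlap in either direction. Leaving out 1 library at a time moved the value between -0.60 and -0.33.

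miR-467e-5p, from the downstream flank at chromosome 2, 10505721 to 10505807, was at 0.924, 1.17 and 0.455 CPM on the diet alone and at 1.55, 1.34 and 0.663 CPM with tofogliflozin. Its groups overlapped, and the log2 fold change was 0.44 ± 0.52 (SE; interval -0.76 to 1.64; adjusted p = 0.877 by edgeR). With 1 library left out it ran from 0.17 without diet-only replicate 3 to 0.80 without tofogliflozin replicate 3. miR-669l-5p, from the upstream flank at 10468971 to 10469068, was at 0.968, 1.17 and 0.455 CPM and at 0.296, 1.34 and 0.719 CPM. Its log2 fold change was -0.26 ± 0.61 (SE; interval -1.68 to 1.16; adjusted p = 0.969 by edgeR), and it turned above 0 without diet-only replicate 2 (0.04) or tofogliflozin replicate 1 (0.22). Both intervals took in a doubling, which was thus not distinguishable from no difference in these libraries.

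**Figure D3:**
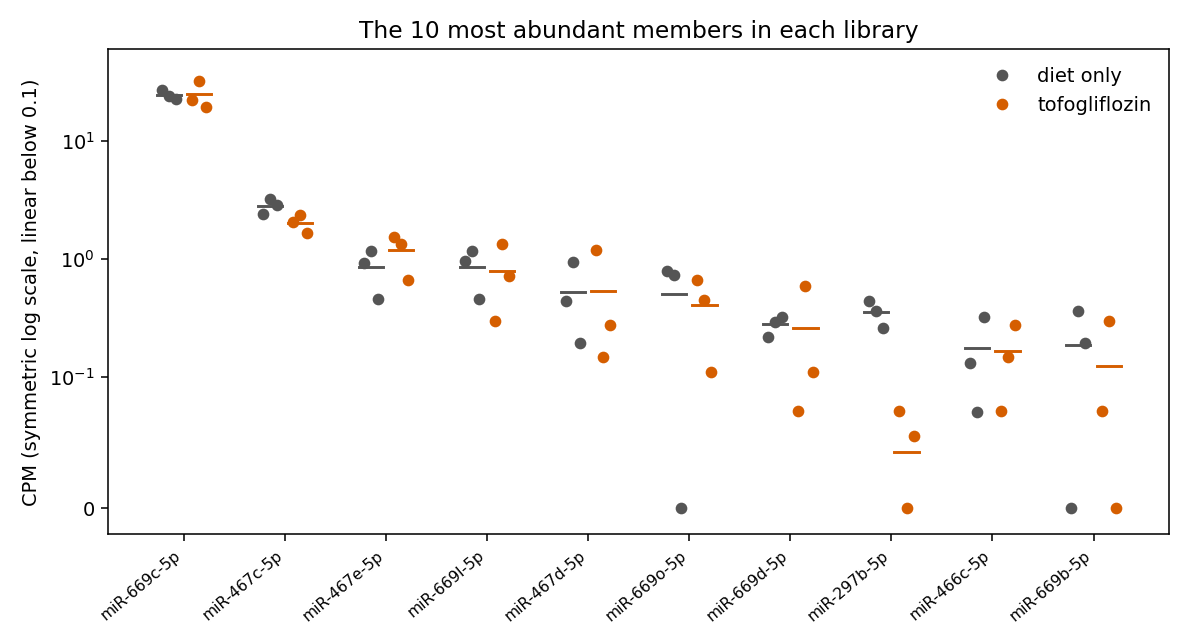
CPM of the 10 most abundant members in each library, on a symmetric log scale that is linear below 0.1. Points are libraries, diet only in grey and tofogliflozin in orange, and horizontal lines are the means of 3 libraries. miR-669c-5p lies between 19.6 and 32.7 CPM in both groups, and the groups do not overlap for miR-467c-5p and miR-297b-5p.

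**Figure D4:**
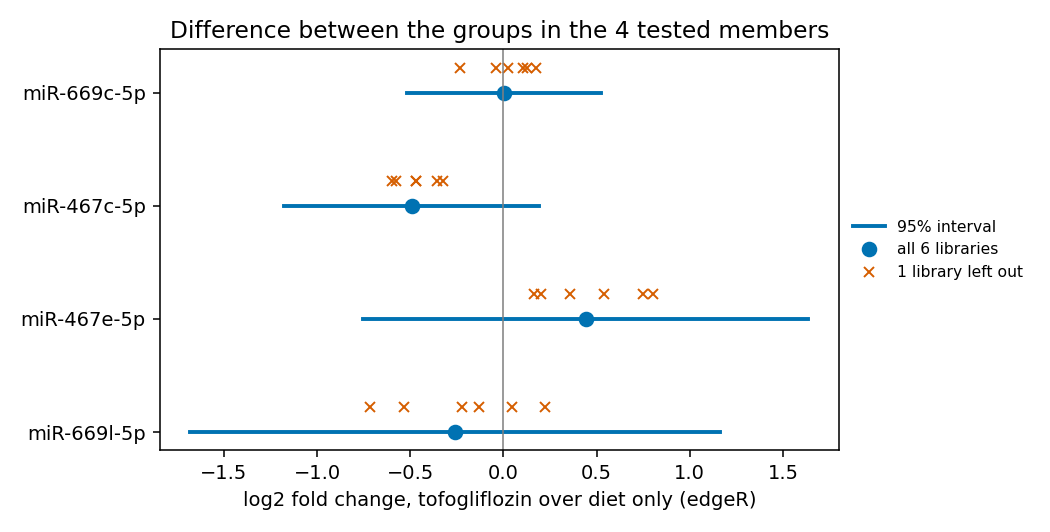
Log2 fold change of the 4 tested members, tofogliflozin over diet only, from edgeR. Circles and lines are the value and its 95% interval with all 6 libraries, and crosses are the values with 1 library left out. Every interval includes 0, and the crosses of miR-669c-5p and miR-669l-5p lie on both sides of it.

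The other named members, too scarce for the default filter, were compared without one. There edgeR pooled the spread over all names (4104 degrees of freedom, against 7.89 with the filter). Its standard errors and p-values without a filter thus do not measure each member's own spread between mice. In that fit edgeR called 10 of 1026 names (0.975%) and 0 of the 19 counted members, of which 11 were below 0 (52.2% of all 1026 names were) with a median of -0.06. The count over all names depended on the libraries and the tool. It ran from 2 without diet-only replicate 2 to 38 without tofogliflozin replicate 3, and was 1 by DESeq2 and 0 by limma-voom or in the fit blocked on replicate number. The count of members was 0 in each of these. miR-297b-5p, the single counted member of the miR-297 family, had 10, 5 and 4 counts in the diet-only replicates and 1, 0 and 1 in the tofogliflozin replicates. In CPM these were 0.440, 0.366 and 0.260 against 0.0739, 0 and 0.0553, so that the groups did not overlap. Pooled over libraries, 19 against 2 counts gave a ratio of 0.142 with an exact interval of 0.0161 to 0.590, which covers counting error alone and says nothing of the spread between mice. The log2 fold change was -2.66 ± 1.45 (SE), and it missed the threshold (adjusted p = 0.762 and unadjusted p = 0.0671 by edgeR's quasi-likelihood test). By limma-voom the unadjusted p was 0.0102 and the adjusted p 0.808, in a fit that borrowed part of its spread from other names (13.2 degrees of freedom). DESeq2 gave an adjusted p of 0.998, and an exact permutation test gave p = 0.1, its lower limit. No member was lower at an unadjusted p under 0.05 by edgeR, where 2.34% of all 1026 names were. Its hairpin is at chromosome 2, 10511667 to 10511775.

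For 3 of the 19 counted members the groups did not overlap, miR-467c-5p, miR-297b-5p and miR-669f-5p, all lower with tofogliflozin. Over all 1026 names with a count, 4.48% were lower without overlap and 8.09% did not overlap in either direction. miR-669f-5p had 3, 2 and 1 counts in the diet-only replicates and 0 in each tofogliflozin replicate, values at or below the 3-count limit, so no fold is given. The other arm of that hairpin, miR-669f-3p, had 4 counts in diet-only replicate 2 and none elsewhere.

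Among the scarcer members the SD within a group was often large beside the mean. miR-467d-5p had 10, 13 and 3 counts in the diet-only replicates and 16, 1 and 5 in the tofogliflozin replicates, which gave 0.529 ± 0.385 and 0.536 ± 0.564 CPM (SD, n = 3 each). miR-669o-5p had 18, 10 and 0 counts, and 9, 3 and 2, or 0.508 ± 0.441 and 0.408 ± 0.280 CPM. miR-466c-5p had 3, 1 and 5 counts, and 1, 1 and 5, or 0.177 ± 0.132 and 0.167 ± 0.102 CPM. The groups overlapped for all 3. Smaller in proportion was the diet-only SD of miR-669d-5p, at 0.279 ± 0.0536 CPM, against 0.260 ± 0.292 CPM with tofogliflozin.

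In the fit with no filter the log2 fold changes of the remaining named members were 0.09 ± 0.79 for miR-467d-5p, -0.40 ± 0.87 for miR-669o-5p, -0.32 ± 1.24 for miR-669d-5p, -0.06 ± 1.47 for miR-466c-5p and -0.81 ± 1.70 for miR-669b-5p (SE). All 5 took the opposite sign when some single library was omitted. Besides the 10 named members, 9 others were counted, with 1 to 6 counts each and 28 in all. Of these miR-466d-3p had 0 counts in every diet-only replicate and 0, 3 and 3 counts in the tofogliflozin replicates, and miR-669e-5p had 5 of its 6 counts in diet-only replicate 3. By edgeR without a filter, miR-466d-3p was the 1 member with an unadjusted p under 0.05 (adjusted p = 0.762 by the quasi-likelihood test), and it is named for that after its values were seen. Over all 1026 names, 6.14% were under that value. With no filter limma-voom had 2 members under it, miR-297b-5p and miR-466d-3p, and DESeq2 had 0.

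Levels were summed over counted members, with the identical counts of miR-466h-5p and miR-669p-3p taken once, under miR-466h-5p. Whether these counts come from the same read is not known. The sum was 33.8, 32.9 and 28.3 CPM in the diet-only replicates and 28.7, 39.97 and 23.8 CPM in the tofogliflozin replicates. The means were 31.7 ± 2.99 and 30.8 ± 8.30 CPM (SD, n = 3 each), and the tofogliflozin values enclosed the diet-only ones. Without miR-669c-5p the sums were 6.47, 8.85 and 5.46 CPM, and 6.21, 7.31 and 4.15 CPM. The miR-467 sum was 4.21 ± 0.986 and 3.76 ± 1.11 CPM, the miR-669 sum 26.9 ± 2.67 and 26.5 ± 7.77 CPM, and the miR-466 sum 0.201 ± 0.107 and 0.464 ± 0.300 CPM (SD, n = 3 each), all with overlapping groups. No test was made on these sums. The miR-297 sum is that of miR-297b-5p alone, compared above, at 0.355 ± 0.0906 and 0.0431 ± 0.0385 CPM without overlap.

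Markers of tissues and cells were checked beside these levels. All 5 kidney tubule miRNAs listed were present, with a summed level of 159884 to 170193 CPM on the diet alone and 147528 to 171541 CPM with tofogliflozin. Of 7 embryonic stem cell miRNAs, from a cell type in which the Sfmbt2 cluster is known to be active, 6 were at 0 and miR-294-3p had 2 counts in all. Summed levels of other lists, diet only and tofogliflozin, were 122 to 149 and 113 to 161 CPM for 5 leukocyte miRNAs, 46.6 to 164 and 84.3 to 224 CPM for 3 erythroid, 18257 to 22208 and 15284 to 20924 CPM for 2 endothelial, and 97.0 to 126 and 92.2 to 120 CPM for 3 muscle miRNAs. The hepatocyte miR-122-5p was at 40.7 to 78.6 and 45.8 to 245 CPM with miR-122-3p at 0, and neural miR-9-5p was at 271 to 392 and 286 to 408.9 CPM with miR-124-3p at 0. All of these ranges overlapped between the groups, and their part in the members' levels was not tested.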

How the data were processed

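Per the labels' protocols, a NucleoSpin miRNA kit was used for RNA isolation and a NEBNext small RNA kit for the libraries. Per the submitters' processing notes, reads were processed with cutadapt 1.14 and build mm10. Neither aligner nor counter nor miRBase version is stated: not given in the sources used here. Deposited by the authors were whole-number counts per pairing of mature miRNA and precursor, 1 table per library and without normalization. Totals over all rows were 8598518 to 29766679. Reads carried no molecular identifiers. Columns of other samples numbered 0. The series' design text gives 3 mice per group, and p-values measure the spread between these libraries. The exception is edgeR with no filter and no block, which pooled that spread over all names. With no filter, limma-voom and edgeR with the block also borrowed part of it from other names (13.2 and 16.1 degrees of freedom for miR-297b-5p). No 2 libraries agreed within sampling noise (chi-square per degree of freedom at least 95.8 in 15 pairs).

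Each mature name took its largest row per library. Differences were tested over the whole table with the quasi-likelihood F-test of edgeR 4.0.16 under R 4.3.3 (2-sided, TMM scaling, filterByExpr at its defaults of 10 counts and 15 in total, Benjamini-Hochberg over 460 names, threshold 0.05), without covariates. CPM are counts per 1000000 of the TMM-scaled library; detection limits use unscaled totals. Standard errors are the absolute log2 fold change over the square root of F. Arm ratios used limma 3.58.1 on log2 with a pseudocount of 1. Exact permutation tests were 2-sided. Alternatives were other size factors and filters, DESeq2 1.42.0, limma-voom, summed rows, the replicate number as a block and each library left out. The edgeR, DESeq2 and limma-voom fits, on names that pass the filter, and the arm test were tried on simulated data. The simulated arm counts varied by counting error alone, without spread between mice, and lay far above the minimum of 10. That trial thus does not show how the arm test behaves on counts like these. Fits of scarcer names and the other alternatives were not. Hairpins were matched by name to GENCODE M21 and 8 mature sequences to RefSeq GRCm38.p6; miR-142a, miR-292a and miR-486a of the marker lists are miR-142, miR-292 and miR-486 in the tables. Named members are the 10 with the highest mean CPM, which include all tested members and the most abundant of each family. The members and lists were chosen with earlier results of these data known.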

Additional observations from a re-analysis of the deposited data

How the results depend on the processing

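No member was called under any alternative run, and of 110 values of named members under alternatives 23 changed sign and 0 passed the threshold. With a low-count filter the count over all names was 0 under each alternative except DESeq2 (2). With no filter it was 10, and from 2 to 38 with 1 library left out (38 without tofogliflozin replicate 3), 1 by DESeq2, and 0 by limma-voom or in the fit blocked on replicate number. The log2 fold change of miR-669c-5p, 0.002 with the default settings, was -0.048 with upper quartile size factors, -0.024 with no low-count filter and -0.063 with limma-voom. With limma-voom and no filter, miR-467d-5p was at -0.026, miR-669o-5p at 0.13, miR-466c-5p at 0.12 and miR-669b-5p at 0.085. With 1 library left out, the ranges were -0.23 to 0.18 for miR-669c-5p, -0.71 to 0.22 for miR-669l-5p, -1.19 to 0.76 for miR-467d-5p, -1.11 to 0.14 for miR-669o-5p, -1.49 to 0.14 for miR-669d-5p, -0.72 to 0.65 for miR-466c-5p and -2.18 to 0.13 for miR-669b-5p. miR-467c-5p, miR-467e-5p and miR-297b-5p kept their sign under every alternative run, with ranges over left-out libraries of -0.60 to -0.33, 0.17 to 0.80 and -3.02 to -2.36. The median over tested members ran from -0.37 to 0.18, the log2 ratio of the summed levels from -0.27 to 0.12 and the number of counted members from 17 to 19, and 14 members had at least 3 counts in a library. The cause of these shifts was not tested. Fits with no filter for members below the default one, with their own alternatives, were chosen after seeing the data.

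Replicate numbers did not pair the libraries: deviations from the group means had r = 0.003, -0.14 and -0.17 across names within the numbers 1, 2 and 3, and each diet-only library correlated best with a tofogliflozin library of another number. With the replicate number as a block 0 members and 0 names were called, and miR-669c-5p was at -0.023.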
